A study of Rattus norvegicus with 16 samples.

Results

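Cytochrome P450 (Cyp) transcripts were examined in NG108 cells, which the labels call rat neuronal and which are known as a mouse neuroblastoma and rat glioma hybrid, on 8 arrays of cells exposed to 0.25% dimethyl sulfoxide (DMSO) and 8 arrays of cells exposed to 4400 ng/ml mefloquine. Mefloquine is an antimalarial drug, and both exposures lasted 2 hours. The members were all probe sets on this Affymetrix rat array whose annotation gives a single gene symbol made of Cyp and a number, without Cyp51. There were 68 of them among 972 gene probe sets, for 45 genes in 10 P450 families. The comparison asks whether any P450 transcript differed between drug-treated and control cells after the short exposure. Whether the mefloquine samples also held DMSO, and whether the numbered samples came from separate cultures, is not given in the sources used here, so every p-value here reflects only variation among these arrays, and that variation may be technical.

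P450 enzymes are heme proteins that use electrons from NADPH to insert oxygen into their substrates. Families 1 to 3 mainly oxidise drugs and other foreign compounds, family 4 hydroxylates fatty acids and eicosanoids, and the higher families handle steroids, bile acids and vitamin D. Most are highest in liver, and several families respond to foreign compounds at the transcript level through receptors such as the aryl hydrocarbon receptor, PXR and CAR. Brain tissue is known to hold lower levels of some of them, and mefloquine itself is known to be oxidised by CYP3A enzymes in human liver.

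No P450 probe set passed the test between mefloquine and DMSO cells, and 1.28% of all tested probe sets did. Most members were dim: 23 of 68 probe sets (33.8%), for 20 of 45 genes, were above the floor on at least 8 arrays. The floor was the 25th percentile of all positive values, 426.5 intensity units. Over all gene probe sets the share was 56.1% (545 of 972). At the other end, 31 members (45.6%) were above the floor on no array, against 27.7% of all gene probe sets. Of the member values 43.1% were at or below 0, against 26.7% of all gene probe set values. The largest difference among the 23 was that of a probe set for Cyp3a23-3a1, a drug-metabolising enzyme, which was 2.00-fold higher with mefloquine, and the next that of a probe set for Cyp2b1, 0.626-fold the DMSO level. Both missed the threshold after adjustment over all probe sets.

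**Figure D1:**
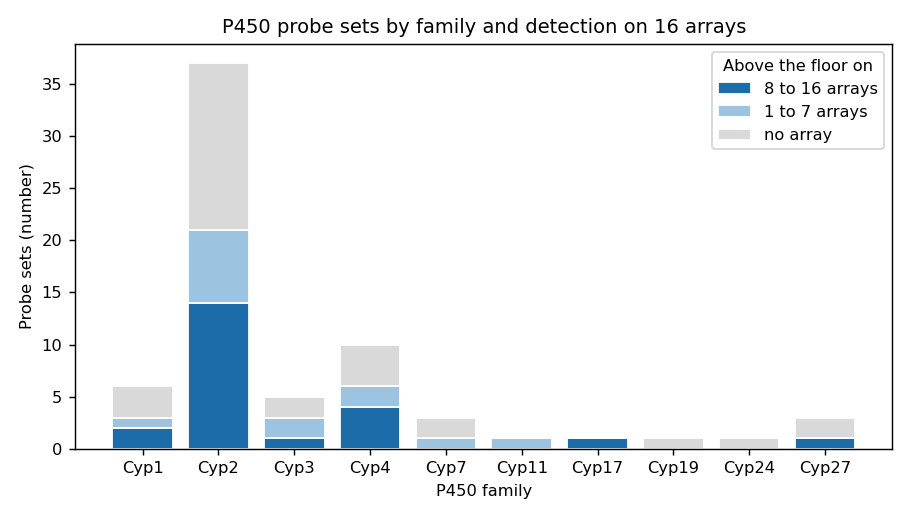
Number of P450 probe sets (vertical axis) in each P450 family (horizontal axis), divided by the number of the 16 arrays on which they were above the floor. Family 2 held 37 of the 68 probe sets, of which 14 were above the floor on 8 or more arrays.

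The arrays had median intensities between 461 and 665 over the gene probe sets, and between 19 and 24 P450 probe sets were above the floor on each DMSO array against 15 to 26 on each mefloquine array. DMSO control 3 stood apart through its ratios of 3' over 5' signal, 21.3 for beta-actin and 4.62 for GAPDH, where the other 15 arrays reached at most 2.67 and 1.48. Those were the values of DMSO control 8, and mefloquine 8 had 2.58 and 1.46. Mefloquine 1 and 2 had been noticed as apart in earlier results of these data, as had a difference between replicates 1 to 5 and replicates 6 to 8 in both groups. The ratios of mefloquine 1 and 2, 1.70 and 1.95 for beta-actin and 1.26 and 1.27 for GAPDH, lay within the range of the other arrays. These 2 arrays were picked from the same data, so leaving them out is no independent check. The differences of the P450 probe sets without DMSO control 3 and mefloquine 1 and 2 are given after the families. None of the 16 neuronal markers listed had a probe set with its single symbol, so the neuronal label could not be checked here. Of the 8 glial markers, Vim and Clu had probe sets and were above the floor on every array. Of 20 hepatocyte markers 3 had a probe set. Apob was above the floor on all 16 arrays, with means of 1620 in DMSO and 1588 in mefloquine arrays. Tat was above it on 12 arrays, and neither passed the test between the groups. G6pc1, the glucose-releasing enzyme of liver, was above the floor on no array. Of the 4 steroidogenic markers listed, Nr5a1 alone had a probe set, and it was above the floor on no array. The probes were designed for rat, and how well they measure mouse transcripts was not tested.

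The sequences upstream of 2 genes of the rat 3A subfamily are shown because the probe set with the largest difference belongs to it. Cyp3a23-3a1 and Cyp3a2 encode enzymes known to be induced through the nuclear receptor PXR, which is known to bind direct repeats of the half-site AGTTCA. Each run gives the 250 bases before the gene's start in RefSeq (GRCr8), 5' to 3' on the gene's own strand, with capitals marking the half-site AGTTCA as found on either strand, here as its reverse complement TGAACT. The Cyp3a23-3a1 run is chr12:14398804-14399053 on the minus strand, and the Cyp3a2 run is chr12:14343858-14344107 on the minus strand.
Cyp3a23-3a1: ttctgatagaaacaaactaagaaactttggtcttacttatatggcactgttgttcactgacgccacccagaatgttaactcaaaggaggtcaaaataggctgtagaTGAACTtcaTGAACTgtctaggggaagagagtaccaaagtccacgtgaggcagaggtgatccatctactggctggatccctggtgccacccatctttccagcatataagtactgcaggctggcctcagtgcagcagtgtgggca
Cyp3a2: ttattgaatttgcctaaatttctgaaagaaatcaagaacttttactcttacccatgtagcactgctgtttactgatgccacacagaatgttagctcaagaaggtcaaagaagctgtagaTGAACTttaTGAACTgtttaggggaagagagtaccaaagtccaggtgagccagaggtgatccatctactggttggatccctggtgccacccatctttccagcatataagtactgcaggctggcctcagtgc
Each run held 2 half-sites, 3 bases apart, and their first bases lay at -144 and -135 before the start of Cyp3a23-3a1 and at -131 and -122 before that of Cyp3a2. A half-site was found on either strand in 12.2% of the 33469 rat windows of this length. The direct repeat of AGTTCA with any 3 bases between its copies was found on either strand in 2 of these windows (0.00598%), those of Cyp3a23-3a1 and Cyp3a2. The letters and spacing searched are those of the 2 runs shown, so this share is no test of a link to the treatment difference. Looser forms of the half-site were not searched. Of the 45 P450 genes 34 were matched to the table by symbol, and 10 of these 34 windows (29.4%) held a half-site. Among the 17 matched genes with a tested probe set it was 1, Cyp3a23-3a1. The window of Cyp2b1 held no such letters, which says nothing about sites outside it. A match is a description of the sequence, and the binding of no factor was measured.

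Family 3 had 5 probe sets for 4 genes, and 1 of them was tested, X64401cds_s_at for Cyp3a23-3a1. Its DMSO intensities had a lowest value of -11.4, a median of 623.5 and a highest of 1407, and its mefloquine intensities a lowest of 823.5, a median of 1416 and a highest of 2045. All 8 mefloquine arrays were above the DMSO mean and 4 of 8 were above the highest DMSO array, so the groups overlapped. The mean went from 678 ± 512 to 1442 ± 477 (SD, n = 8 each). On the log2 scale of floored values the difference was 1.00 ± 0.30 (SE), with a 95% interval from 0.38 to 1.63 and a limma adjusted p of 0.214. An exact two-sided permutation test of the mean intensities gave p = 0.0104 and an adjusted p of 0.778 over all gene probe sets. The size moved with the floor, to 1.33 with a floor at the 10th percentile and 0.53 with one at the 40th.

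The Cyp3a23-3a1 difference was larger in replicates 1 to 5 than in replicates 6 to 8, though the test of that change did not pass after adjustment. In replicates 1 to 5 the DMSO arrays read 322, 249, -11.4, 487 and 760 in the order of their numbers, and the mefloquine arrays 2045, 1968, 859, 1566 and 823.5. These values did not overlap, as was so for 1 of the 68 P450 probe sets and for 1.34% of all gene probe sets in these replicates. In replicates 6 to 8 the DMSO arrays read 1407, 1343 and 869 and the mefloquine arrays 1207, 1266 and 1800, which overlapped. The DMSO means of the ranges were 361 (n = 5) and 1206 (n = 3), while the mefloquine means were close to each other at 1452 and 1424. The log2 difference was 1.46 ± 0.30 (SE) within replicates 1 to 5, where it passed with a limma adjusted p of 0.0445 (1.08% of the probe sets tested there passed), and 0.25 ± 0.25 within replicates 6 to 8, with a limma adjusted p of 0.865. In limma, the interaction of treatment and range (the effect in replicates 6 to 8 minus that in 1 to 5) was -1.21, with an unadjusted p of 0.018 and an adjusted p of 0.937. Without DMSO control 3 and mefloquine 1 and 2, the lowest DMSO array and the highest mefloquine arrays for this probe set, the difference was 0.72 and the limma adjusted p 0.929. Over all alternatives its adjusted p lay between 0.0445 and 0.929. In these bulk samples a change in the number of expressing cells and a change in RNA per cell cannot be told apart.

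The other Cyp3a23-3a1 probe set, D13912_s_at, was above the floor on 1 array, DMSO control 3 at 565. Its other values lay between 196 and 426 in DMSO cells and between 218.5 and 378 in mefloquine cells. Its mean intensity was 349 ± 110 and 296 ± 62.6 (SD, n = 8 each; exact permutation p = 0.278). Cyp3a2, a male-predominant liver enzyme in rat, was just below the detection rule, above the floor on 3 DMSO arrays and 1 mefloquine array, with means of 258 ± 305 and 248 ± 170 (SD, n = 8 each). The remaining members of the family, for Cyp3a9 and Cyp3a18, were above the floor on no array.

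**Figure D2:**
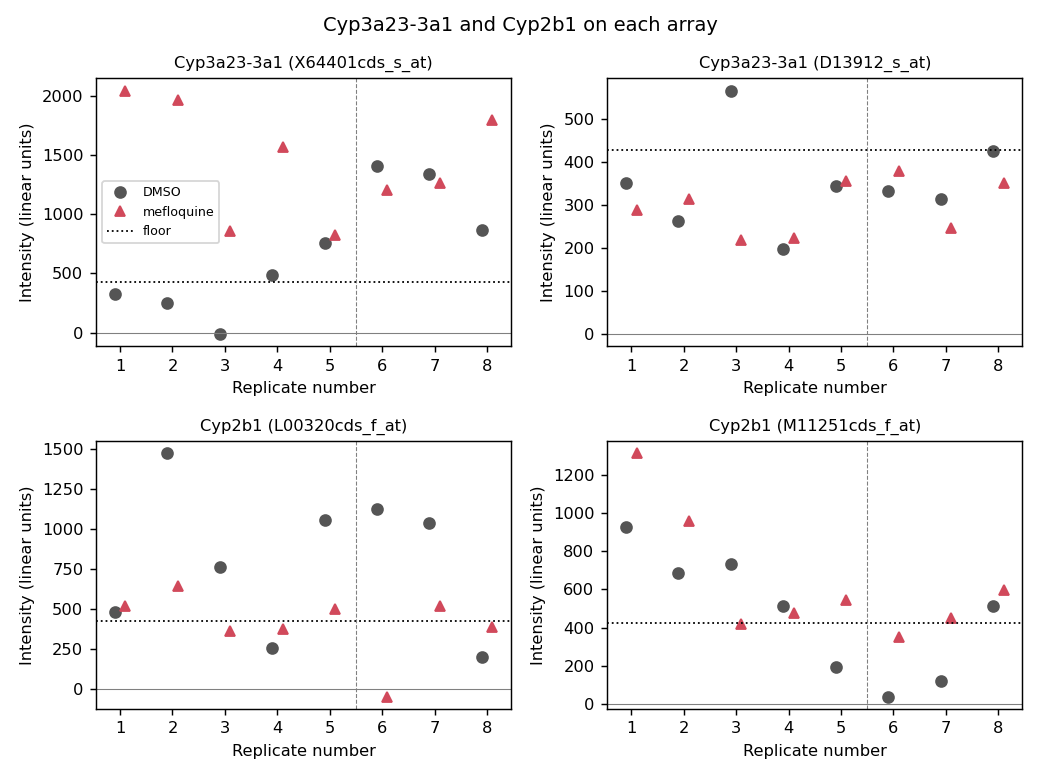
Deposited intensity (linear units, vertical axis) on each array against replicate number (horizontal axis) for both probe sets of Cyp3a23-3a1 and of Cyp2b1, with DMSO as circles and mefloquine as triangles, the floor of 426.5 as a dotted line and replicates 1 to 5 separated from 6 to 8 by a dashed line. For X64401cds_s_at the groups are apart in replicates 1 to 5 and overlap in replicates 6 to 8, and the Cyp2b1 probe sets overlap throughout.

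Family 2, the largest, had 37 probe sets for 21 genes, of which 14 probe sets for 11 genes were tested and none was called. Of these 14 differences 11 were below 0 and 3 above. Its 2b subfamily, known as the phenobarbital-inducible enzymes of rat liver, had 6 of 8 probe sets above the floor on 8 or more arrays, the largest number of any subfamily. The 2c subfamily, with the sex-dependent liver enzymes, had 3 of 14, and the 3 probe sets of Cyp2j3, an arachidonic acid epoxygenase, were above the floor on no array.

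Cyp2b1, the main phenobarbital-inducible enzyme of rat liver, was measured by 2 tested probe sets, which differed in opposite directions. By L00320cds_f_at the DMSO arrays had a lowest value of 196, a median of 901 and a highest of 1475, and the mefloquine arrays a lowest of -49.7, a median of 444 and a highest of 645. All 8 mefloquine arrays were below the DMSO mean, but only 1 was below the lowest DMSO array. The means were 800 ± 456 and 407 ± 208 (SD, n = 8 each), and the log2 difference was -0.68 ± 0.25 (SE; 95% interval -1.20 to -0.15) with a limma adjusted p of 0.551. The exact permutation p was 0.0448, and 0.984 after adjustment over all gene probe sets. The difference was -0.60 in replicates 1 to 5, -0.80 in replicates 6 to 8 and -0.76 without the 3 arrays that stood apart.

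By M11251cds_f_at the Cyp2b1 values were 39.5, 512 and 926 (lowest, median and highest) in DMSO cells and 351, 511 and 1312 in mefloquine cells. The medians were nearly the same, and the high mefloquine values were those of mefloquine 1 and 2, at 1312 and 960. The log2 difference was 0.10 ± 0.25 (SE; 95% interval -0.42 to 0.62; limma adjusted p = 0.998), and -0.15 without the 3 arrays that stood apart. Both Cyp2b1 probe sets carry the suffix that Affymetrix gives to probe sets matching a gene family, so the close copies of the 2b subfamily cannot be told apart by them.

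The other tested 2b probe sets had intervals that spanned 0. For Cyp2b2, the closest copy of Cyp2b1, J00728cds_f_at differed by -0.03 ± 0.24 (log2, SE) and K01721mRNA_s_at by 0.09 ± 0.24, with 4 arrays of each group above the floor for the latter. Cyp2b15 differed by -0.03 ± 0.35 and Cyp2b3 by -0.25 ± 0.18. For Cyp2b15 the replicate range rather than the treatment ordered the arrays. In both groups together, the values of replicates 1 to 5 lay between 405 and 1496 and those of replicates 6 to 8 between -8.3 and 288.5, and the log2 difference between the ranges was -1.07 in DMSO and -1.02 in mefloquine arrays. Of the hepatocyte markers, Apob had means of 1971 and 1035 in DMSO and 1936 and 1007 in mefloquine arrays in replicates 1 to 5 and 6 to 8, and Tat had 729 and 305 in DMSO and 1209 and 358 in mefloquine arrays. G6pc1 had -1899 and -2702 in DMSO and -2129 and -1692 in mefloquine arrays, all below the floor. The part of these markers in the P450 values was not tested.

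Cyp2c22, a member of the sex-dependent subfamily, had the largest decrease after Cyp2b1. Its DMSO values were 327, 787 and 1665 (lowest, median and highest) and its mefloquine values -300, 613 and 940. The groups overlapped, and the difference was -0.44 ± 0.26 (log2, SE; 95% interval -0.99 to 0.11; limma adjusted p = 0.982). It was -0.77 without the 3 arrays that stood apart, with a limma adjusted p of 0.378, the lowest over its alternatives, which reached 1. Cyp2c7, a female-predominant enzyme, differed by -0.02 ± 0.20 by M31031mRNA_f_at and by -0.05 ± 0.26 by rc_AA945573_f_at. Another Cyp2c7 probe set, M18335_f_at, was above the floor on 3 arrays, as were M13234cds_f_at of Cyp2b2, rc_AI169372_g_at of Cyp2c23 and M29853_at of Cyp4b1.

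The 2a genes, known as steroid hydroxylases of rat liver, were lower by both tested probe sets without passing. Cyp2a1 differed by -0.29 ± 0.26 (log2, SE), with values of -209, 1006 and 1344 (lowest, median and highest) in DMSO cells and -625.5, 878 and 1133 in mefloquine cells. The 3 arrays at the bottom were DMSO control 3 and mefloquine 1 and 2, the same ones that stood apart, and without them the difference was -0.17. Cyp2a2 differed by -0.22 ± 0.12 (SE; 95% interval -0.47 to 0.03).

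The 2d genes include Cyp2d4, the form known from rat brain. By rc_AA997886_s_at it was above the floor on all 16 arrays, with values of 2154, 3290 and 4247 (lowest, median and highest) in DMSO cells and 2298, 2723 and 3667 in mefloquine cells. The groups overlapped, and the difference was -0.14 ± 0.15 (log2, SE; 95% interval -0.46 to 0.17). By its other probe set, U48220_at, Cyp2d4 was below 0 on 15 of 16 arrays, and the only positive value was 874 on DMSO control 3. Cyp2d3 was also above the floor on every array and differed by -0.05 ± 0.26. Cyp2d2 was above the floor on no array. Cyp2e1, the ethanol-oxidising enzyme known also from brain, had means of 1108 ± 427 and 1200 ± 445 (SD, n = 8 each) and a difference of 0.09 ± 0.29 (log2, SE).

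Among the members of family 2 that were not tested, the largest differences of mean intensity were -801 for U48220_at (Cyp2d4), -370 for Cyp2j3 and -240 for Cyp2g1, an olfactory enzyme, on the lower side, and 204 for Cyp2d2 and 152 for Cyp2c23 on the higher side. Apart from the value of U48220_at on DMSO control 3 they lay below the floor on every array, so no fold is given. Their exact permutation p-values were 0.137, 0.203, 0.118, 0.274 and 0.451.

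Family 1 holds the classic targets of the aryl hydrocarbon receptor. Cyp1a1, the most inducible of them, was above the floor on no array, with values between -493 and 55.9 over both groups. Cyp1a2 was above the floor on all 16 arrays by M26127_s_at, with DMSO values of 1147, 2031 and 2097 (lowest, median and highest) and mefloquine values of 1634, 1865 and 2182. The low DMSO value was that of DMSO control 3. The difference was 0.01 ± 0.13 (log2, SE), with a 95% interval from -0.26 to 0.28. By K03241cds_s_at, Cyp1a2 was above the floor on 2 arrays, both DMSO. Cyp1b1, which is known outside the liver and oxidises estrogens, was above the floor on 9 arrays by U09540_g_at and on none by its other probe sets, U09540_at and X83867cds_s_at. Its tested values stayed close to the floor, between 270 and 530, and the floored difference was 0.00 ± 0.09.

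Family 4, the fatty acid hydroxylases, had 10 probe sets for 9 genes, and 4 were tested. Cyp4f4, Cyp4f5 and Cyp4f6 belong to the subfamily known to inactivate leukotrienes, and Cyp4a8 is a relative of the peroxisome proliferator targets. Cyp4f4 had DMSO values of 608, 798 and 1116 (lowest, median and highest) and mefloquine values of 755, 872.5 and 1139. It differed by 0.17 ± 0.12 (log2, SE; 95% interval -0.09 to 0.43). Cyp4f6 differed by -0.09 ± 0.16, Cyp4f5 by -0.03 ± 0.32 and Cyp4a8 by -0.01 ± 0.28.

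The near-zero values of Cyp4f5 and Cyp4a8 were averages of differences with opposite signs in the replicate ranges. Cyp4a8 differed by 0.49 in replicates 1 to 5 and by -0.86 in replicates 6 to 8, and Cyp4f5 by 0.47 and -0.87. Limma's interaction of treatment and range had unadjusted p-values of 0.0171 and 0.035 and adjusted p-values of 0.937 and 0.990. With Cyp3a23-3a1, 3 of the 23 tested members had an unadjusted interaction p under 0.05, against 4.22% of all tested probe sets, and none passed after adjustment.

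Cyp4b1, known from lung, was not tested, with 3 arrays above the floor, but its values separated by range in both groups. In replicates 1 to 5 they lay between -219.5 and 512 in DMSO cells and between 123 and 1154 in mefloquine cells. In replicates 6 to 8 they were below 0 on all 6 arrays, between -612 and -309. Its mean intensity differed by 287 between the treatments, the largest increase among untested members (exact permutation p = 0.292).

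The steroid and vitamin D families were read by 7 probe sets. Cyp17a1, the steroid hydroxylase and lyase of androgen synthesis, was above the floor on 14 of 16 arrays. Its DMSO values were 346, 1841 and 3188 (lowest, median and highest) and its mefloquine values 298, 1670 and 1915. Both low values came from replicate 5, at 346 and 298, while the lowest value on any other array was 1548. The difference was -0.28 ± 0.37 (log2, SE), with a 95% interval from -1.06 to 0.50 and a limma adjusted p of 0.982. It was -0.57 without DMSO control 5 and -0.03 without mefloquine 5. The steroidogenic marker Nr5a1 was above the floor on no array, with means of -714 in DMSO and -585 in mefloquine arrays. What this means for the Cyp17a1 signal was not tested.

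Cyp27b1, which makes the active form of vitamin D, was above the floor on all 16 arrays, with means of 2357 ± 258 and 2097 ± 392 (SD, n = 8 each). Its DMSO values were 2012, 2370 and 2801 (lowest, median and highest) and its mefloquine values 1246, 2236 and 2541. It differed by -0.19 ± 0.13 (log2, SE; 95% interval -0.47 to 0.10). Cyp11a1, which starts steroid synthesis from cholesterol, was just below the detection rule, with 3 DMSO arrays and 1 mefloquine array above the floor and means of 297 ± 219 and 190 ± 209 (SD, n = 8 each). Aromatase (Cyp19a1), the vitamin D hydroxylase Cyp24a1 and both probe sets of the sterol hydroxylase Cyp27a1 were above the floor on no array. Family 7, for bile acid and oxysterol synthesis, had 3 probe sets and none was tested.

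**Figure D3:**
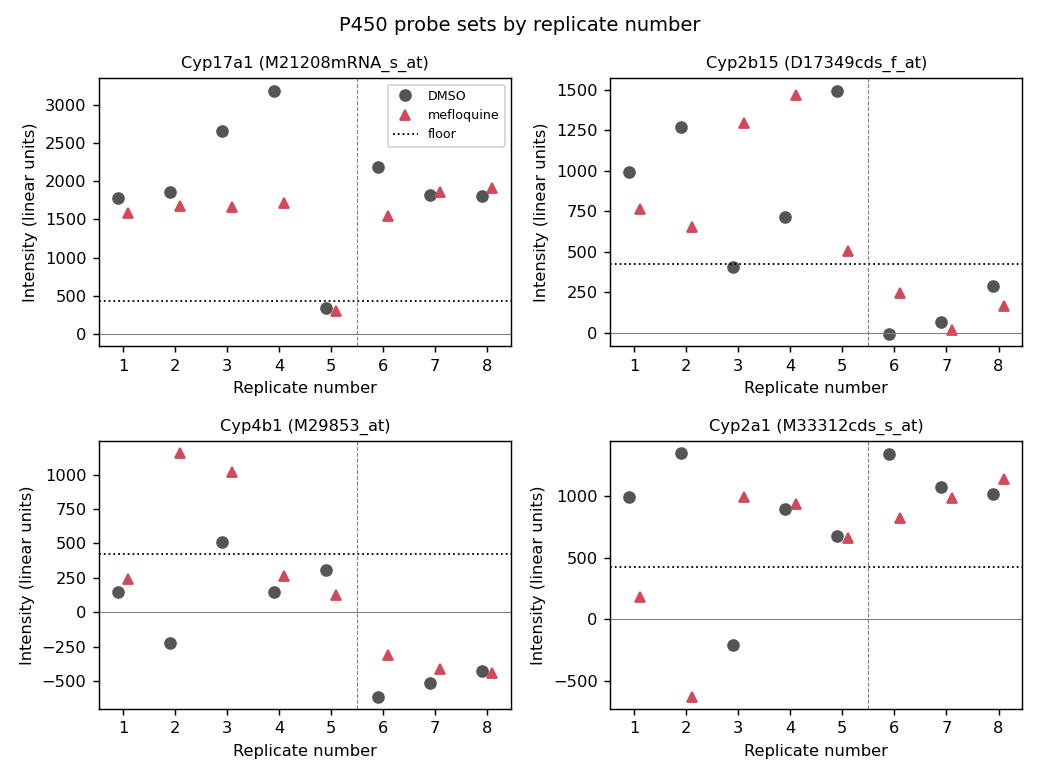
Deposited intensity (linear units, vertical axis) against replicate number (horizontal axis) for Cyp17a1, Cyp2b15, Cyp4b1 and Cyp2a1, with DMSO as circles, mefloquine as triangles and the floor of 426.5 as a dotted line. Cyp17a1 is low in replicate 5 of both groups, Cyp2b15 and Cyp4b1 are lower in replicates 6 to 8 of both groups, and Cyp2a1 is lowest on DMSO control 3 and mefloquine 1 and 2.

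Without DMSO control 3 and mefloquine 1 and 2, no tested P450 probe set passed either. The difference (log2, mefloquine minus DMSO) was then -0.41 for Cyp4f5, -0.32 for Cyp2d3, -0.16 for both Cyp2b15 and J00728cds_f_at of Cyp2b2, 0.06 for Cyp4f4 and -0.26 for Cyp27b1. These moved by more than 0.05 from the values with all arrays, as did Cyp3a23-3a1, Cyp2a1, Cyp2c22 and both probe sets of Cyp2b1 above. Cyp1a2 was at -0.09, Cyp2e1 at -0.08, and Cyp2c7 at 0.06 by M31031mRNA_f_at and 0.01 by rc_AA945573_f_at. K01721mRNA_s_at of Cyp2b2 missed the detection rule on these arrays, and the other tested members moved by less than 0.05.

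Set beside the whole array, the P450 members gave no calls where 1.28% of the 545 tested probe sets were called (limma, Benjamini-Hochberg adjusted), 1.1% as higher and 0.183% as lower with mefloquine. At an unadjusted p under 0.05 there were 2 of 23, Cyp3a23-3a1 and L00320cds_f_at of Cyp2b1, against 4.22% of all tested. By the exact test of intensities the same 2 of 68 had an unadjusted p under 0.05, against 3.91% of all gene probe sets, and none passed after adjustment, nor did any gene probe set. No P450 probe set had groups that did not overlap over all 16 arrays, against 0.309% of all gene probe sets. Of the 23 differences 16 were below 0 and 7 above, a share below 0 of 69.6% against 53.6% of all tested, and their median was -0.03 against -0.01.

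For 20 of the 23 tested members (87.0%) the whole 95% interval lay within a 2-fold change up or down, against 87.7% of all tested probe sets. The exceptions were Cyp3a23-3a1, L00320cds_f_at of Cyp2b1 and Cyp17a1. The median standard error was 0.25 on the log2 scale for members and 0.19 for all tested probe sets. These intervals hold for floored values, and for the 45 members that were not tested no fold was measured.

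**Figure D4:**
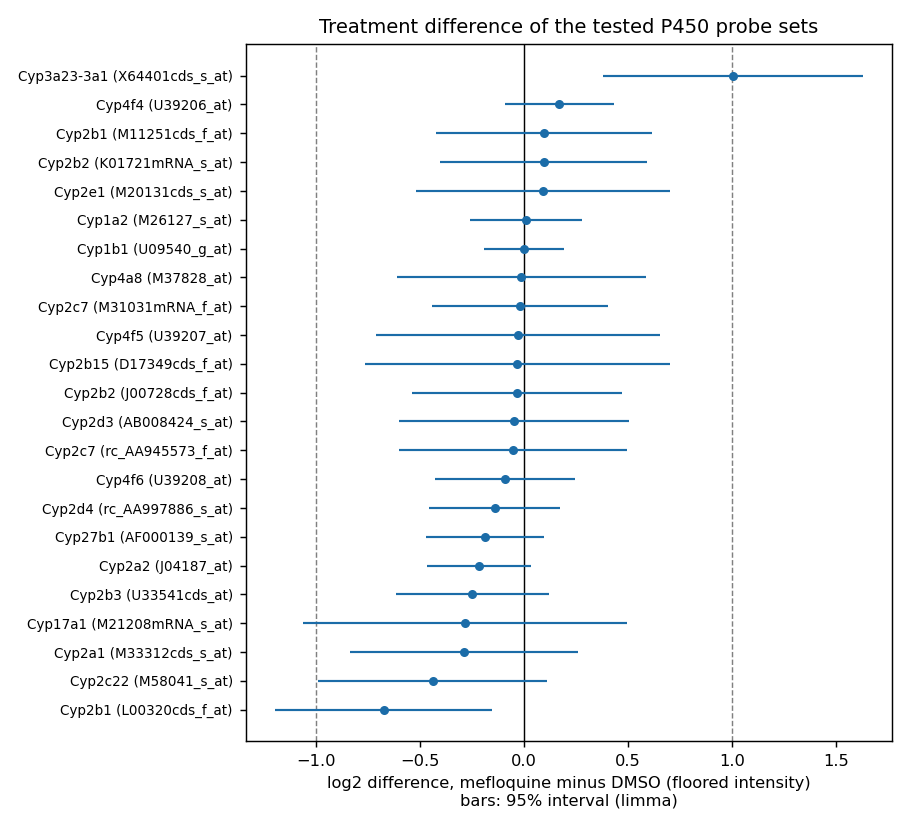
Log2 difference, mefloquine minus DMSO, of floored intensities (horizontal axis) for the 23 tested P450 probe sets (vertical axis), with points for the estimate and bars for the 95% interval from limma, n = 8 arrays each. The dashed lines mark a 2-fold change, and the intervals of Cyp3a23-3a1, L00320cds_f_at of Cyp2b1 and Cyp17a1 cross them.

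Probe sets of the same gene often differed in detection. Of 18 genes with 2 or more probe sets, 1 (Cyp2b1) had all of them above the floor on 8 or more arrays, 10 had none, and 7 had some. For 17 of the 23 tested members (73.9%) replicates 6 to 8 differed from 1 to 5 in the same direction in DMSO and in mefloquine arrays. The share over all tested probe sets was 65.5%, so this was not particular to the P450 members. Affymetrix suffixes for probes shared between related transcripts were carried by 16 of the 23 tested members, so a value may hold signal of close copies. A further 8 P450 probe sets carry several symbols and are not named, and of these 3 were tested and none was called.

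The genes that work with P450 enzymes were taken from 5 lists of 56 genes in all, of which 17 had a probe set and 10 were tested by their brightest one. None was called, and 5 were higher and 5 lower, with a median of -0.00 on the log2 scale against -0.01 for all tested probe sets. Of the electron donors and partners, P450 reductase (Por), which passes electrons from NADPH to microsomal P450 enzymes, had means of 8759 ± 1005 and 8247 ± 1196 (SD, n = 8 each) and differed by -0.09 ± 0.11 (log2, SE; 95% interval -0.32 to 0.14). Cytochrome b5 reductase (Cyb5r3) differed by -0.01 ± 0.10, cytochrome b5 type B (Cyb5b) by 0.00 ± 0.22 and epoxide hydrolase Ephx1 by -0.14 ± 0.13. Of the heme list, the inducible heme oxygenase Hmox1 differed by 0.51 ± 0.16 (limma adjusted p = 0.266) and Hmox2 by -0.12 ± 0.24. The Hmox1 value on DMSO control 3, 8.8, was far below the other DMSO arrays, and without that array the difference was 0.38. All 8 mefloquine arrays were above the DMSO mean of Hmox1, and 5 were above its highest DMSO array. Its exact permutation p was 0.0012, and 0.242 after adjustment over all gene probe sets.

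Of the receptor list of 22 genes, 8 had a probe set and 3 were tested. Arnt, the partner of the aryl hydrocarbon receptor, differed by 0.13 ± 0.23 (log2, SE), the retinoid X receptor Rxrb by -0.02 ± 0.17 and the fatty acid receptor Ppard by 0.07 ± 0.21. For Arnt limma's interaction with the replicate range was -1.37, with an unadjusted p of 0.0014 and an adjusted p of 0.749. Ppara, the receptor behind induction of the 4a genes, was above the floor on no array. PXR (Nr1i2), CAR (Nr1i3) and Ahr had no probe set with their single symbol, so their levels were not analysed here. Prostacyclin synthase (Ptgis), a P450 protein with another name, differed by 0.30 ± 0.22. The 11 genes of the steroid pathway list had no such probe set.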

How the data were processed

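Messenger RNA was measured on 16 Affymetrix rat arrays, 8 per group, with 10 µg of total RNA on each. What the authors deposited are linear intensities after their usual chip scaling, with no further transformation per the labels. No scaling software or target is named there. Of 1031 probe sets 59 were controls. Of the 972 others 821 had 1 gene symbol in the platform annotation, 38 several and 113 none.

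Values under the floor, the 25th percentile of positive values (426.5), were set to it and log2 was taken. This can understate the differences of dim probe sets, and for some it enlarged them or changed their sign. A probe set that exceeded this floor on 8 or more of the 16 arrays, of either group, was fitted with limma 3.58.1 (R 4.3.3; lmFit, eBayes), with treatment as the only term, and called at a Benjamini-Hochberg adjusted p under 0.05 over the 545 tested. With fewer arrays the number required was scaled down in proportion. Exact two-sided permutation tests used all 12870 divisions of the arrays into 8 and 8 (numpy 2.4.6) on unfloored intensities, adjusted over 972. Both tests were run on simulated data with normally distributed noise. The limma run placed its changes only in probe sets above the floor on more arrays than several tested P450 members. The run of the exact test used changes larger than its noise. Neither shows how the tests perform on dim members. Replicate numbers were not taken as pairs. The number of arrays limits the precision.

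Named were all tested members, both probe sets of Cyp3a23-3a1 and Cyp2b1, the 3 members next below the detection rule (most arrays above the floor, ties by mean intensity), the 3 untested with the largest increase and the 3 with the largest decrease, members of families 1, 11, 17, 19 and 27, any with an exact p under 0.05, and tested genes of the partner lists. Members and lists were chosen with earlier results of these data known. Promoter windows came from RefSeq. Alternatives were quantile and median scaling, an offset, a floor at the 40th or at the 10th percentile, other filters, eBayes with trend, a block for replicate number or range, each range alone, the GAPDH ratio as a covariate and arrays left out. The interaction with the range was added after seeing the data.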

Additional observations from a re-analysis of the deposited data

Results flagged for a closer look

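Within each group of 8 arrays the highest and the lowest value of each named probe set was set against its nearest neighbour (Dixon's test). Of 100 such comparisons 13 (13%) exceeded the 95% critical value, which chance does in about 1 of 20. DMSO control 3, whose 3' over 5' ratios were given above, accounted for 7 of them. On that array Cyp1a2 (M26127_s_at) read 1147 where the other DMSO arrays lay between 1799 and 2097, Cyp2a1 read -209 against 676 to 1344, Cyp2c7 (M31031mRNA_f_at) 111 against 595 to 1021, Cyp2c23 (U04733_s_at) -1206 against -397 to 154, and Cyp2j3 (U40004_s_at) -812 against -94.1 to 374. Also on DMSO control 3, Hmox1 read 8.8 against 765 to 1055 and Rxrb 536 against 951 to 1309.

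Mefloquine 2 was apart for 2 probe sets of Cyp2c7 in opposite directions: M18335_f_at read 961 where the other mefloquine arrays lay between 197 and 424, and M31031mRNA_f_at read 68.7 against 570 to 999.5. Cyp17a1 read 298 on mefloquine 5 against 1548 to 1915 on the other mefloquine arrays, and the DMSO array of the same number was also the lowest of its group. Cyp27b1 read 1246 on mefloquine 8 against 1947 to 2541. L00320cds_f_at of Cyp2b1 read -49.7 on mefloquine 6 against 364 to 645, and M33296complete_seq_at of Cyp2g1 read -719 on DMSO control 6 against -413 to -188. The part of the 3' over 5' ratio in these values was not tested.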

How the results depend on the processing

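No P450 probe set was called under any alternative except in replicates 1 to 5 alone, where 1 (Cyp3a23-3a1) was, and leaving out each array in turn gave 0 to 0. With the floor at the 40th percentile 14 P450 probe sets were above it on 8 or more arrays, and at the 10th percentile 32, against 23, and leaving out arrays gave 22 to 23. Of all gene probe sets 7 were called: 3 when all 16 arrays had to be above the floor, 4 with the floor at the 10th or 40th percentile, an offset or quantile normalization, 1 in replicates 6 to 8 alone, and 4 to 8 with an array left out. With the replicate number as a block 8 of 545 were called and no P450 probe set. The numbers were not shown to pair the samples. The deviations of same-numbered arrays correlated at 0.0569 to 0.593. These were deviations from the treatment group means, so the difference between the replicate ranges stayed in them. Replicates 6, 7 and 8 had 0.509, 0.466 and 0.593 with their own number, and at most 0.572, 0.541 and 0.523 with another. Replicate 5 had 0.447 with its own number and at most 0.217 with another. Of the 8 DMSO arrays 2, those of replicates 5 and 8, correlated best with the mefloquine array of their own number. Cyp17a1 was also low on both arrays of replicate 5, and the 3' over 5' ratios were alike on both arrays of replicate 8. The log2 differences of 9 of the 23 tested P450 probe sets kept their sign under every alternative, and those that changed sign had no call in the report. The values after a change of sign follow by alternative, as log2 differences unless said otherwise. With the GAPDH ratio as a covariate they were Cyp1a2 -0.0875, Cyp1b1 -0.0170, Cyp4a8 0.0730, Cyb5b -0.0633. In intensity units under the exact test they were Cyp1a2 -11.5, Cyp2c7 rc_AA945573_f_at 9.9, Cyp4a8 28.3. With the floor at the 10th percentile they were Cyp2c7 rc_AA945573_f_at 0.12. With the floor at the 40th percentile they were Cyp4a8 0.0331, Cyb5b -0.0215. With median scaling they were Cyp1a2 -0.0241, Cyp1b1 -0.0162, Cyb5b -0.0299. With an offset in place of the floor they were Cyp2b15 0.0074, Cyp2b2 K01721mRNA_s_at -0.0516, Cyp2c7 rc_AA945573_f_at 0.0598, Cyb5b -0.0002. With quantile normalization they were Cyp1a2 -0.0284, Cyp2c7 M31031mRNA_f_at 0.0175, Cyp4a8 0.0060, Cyb5b -0.0312. In replicates 1 to 5 alone they were Cyp2b2 J00728cds_f_at 0.0010, Cyp2d3 0.22, Cyp2e1 -0.14, Cyp4a8 0.49, Cyp4f5 0.47, Rxrb 0.17. In replicates 6 to 8 alone they were Cyp1a2 -0.0823, Cyp1b1 -0.0715, Cyp2b2 K01721mRNA_s_at -0.24, Cyp2b3 0.0238, Cyp2c7 M31031mRNA_f_at 0.0694, Cyp4f6 0.0461, Por 0.15, Cyb5r3 0.0376, Cyb5b -0.17, Ppard -0.21, Arnt -0.73. Without DMSO control 3 and mefloquine 1 and 2 they were Cyp1a2 -0.0940, Cyp1b1 -0.0336, Cyp2b1 M11251cds_f_at -0.15, Cyp2c7 M31031mRNA_f_at 0.0598, Cyp2c7 rc_AA945573_f_at 0.0066, Cyp2e1 -0.0812, Cyb5b -0.15, Hmox2 0.0565, Ppard -0.0509, Arnt -0.15. Leaving out each array in turn gave these ranges: Cyb5b -0.14 to 0.0775, Cyb5r3 -0.0582 to 0.0367, Cyp1a2 -0.0930 to 0.0375, Cyp1b1 -0.0308 to 0.0295, Cyp2b1 M11251cds_f_at -0.0656 to 0.20, Cyp2b15 -0.20 to 0.13, Cyp2b2 J00728cds_f_at -0.17 to 0.0873, Cyp2c7 M31031mRNA_f_at -0.14 to 0.0944, Cyp2c7 rc_AA945573_f_at -0.18 to 0.0646, Cyp2d3 -0.22 to 0.10, Cyp2e1 -0.0943 to 0.24, Cyp4a8 -0.13 to 0.18, Cyp4f5 -0.18 to 0.11, Cyp4f6 -0.16 to 0.0047, Ppard -0.0294 to 0.17, Rxrb -0.15 to 0.0304. The cause of these changes was not tested.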
